A study of Mus musculus with 12 samples.

Results

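The genes described here are the axon guidance ligands and receptors of the mouse: semaphorins with plexins and neuropilins, ephrins with Eph receptors, Slits with Robos, and netrins and draxin with Dcc and the Unc5 receptors. A fixed list of 55 gene symbols was matched to the array's probe sets that carry a single gene symbol, and each gene was read from its probe set with the highest mean signal over the 12 samples. In all, 54 of the 55 genes had such a probe set, among 18193 genes on the array, and 52 lay above the limit for dim probe sets, among 12598 genes tested. Ephb2 was not analysed here because no probe set carried that symbol alone.

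The samples were total RNA of mouse central nervous system measured on Affymetrix arrays, in which a probe set is a group of short probes to a transcript's 3′ region. The 4 groups of 3 samples were wild-type mice and NR3B knockout mice, each at P0, which is postnatal day 0, and at P5, which is postnatal day 5. NR3B is the protein product of Grin3b, a subunit of NMDA-type glutamate receptors. The tissue is named as brain with hindbrain and spinal cord in 1 field of the labels and as brain in another, and the proportion of each region, the strain, the deleted stretch of the gene and the number of animals per sample are not given in the sources used here. Because separate animals are not named, the p-values reflect only how far these samples spread, part of which may be technical.

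Guidance ligands are secreted or membrane-bound proteins that attract or repel the growth cone, the moving tip of a growing axon, through receptors on its surface. Neuropilins bind secreted semaphorins and pass the signal on through plexins, Eph receptors are tyrosine kinases that bind membrane-bound ephrins, Robos bind Slits, and Dcc and Unc5 proteins bind netrin for attraction and repulsion. After axons have reached their targets, many of these proteins remain in the tissue and act on synapses, cell migration, vessels and glia.

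Levels are given as log2(signal + 16) after quantile normalization, so that a difference of 1 is a 2-fold change, and levels are compared between samples for the same probe set, never between genes. A gene was called changed at an adjusted p under 0.05 (limma, Benjamini-Hochberg over all genes tested). Differences are P5 minus P0, averaged over wild type and knockout unless a genotype is named, and errors are standard errors (SE) from the model. The targeted gene Grin3b was dim and lay below the limit for dim probe sets. At P0 it read 8.49, 7.76 and 8.32 in wild type against 5.59, 5.69 and 6.96 in knockout, and at P5 8.14, 7.46 and 7.43 against 5.95, 5.93 and 5.91, with every knockout sample below every wild-type sample. The P0 wild-type samples were the most variable: the median SD of the guidance genes was 0.25 there, 0.16 in P0 knockout and 0.14 in both P5 groups. P0 wild-type sample 2 lay farthest from its group, with a median deviation of 0.311 over the guidance genes, while P5 samples deviated by 0.0857 to 0.188.

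With age, 30 of the 52 guidance genes changed, 13 of them higher and 17 lower at P5. That is 57.7% of those tested, beside 29.6% of all genes tested, of which 14.5% were higher and 15.1% lower. The median difference of the guidance genes was -0.21, against 0.00 over all genes, and the median size of the difference was 0.39 against 0.24. Most changes were small: 3 reached 2-fold (Plxnb3, Sema3d and Unc5c) and 16 lay under 1.5-fold. For 17 guidance genes, 6 higher and 11 lower, the 6 P5 samples did not overlap the 6 P0 samples, a pattern seen for 15.2% of all genes (7.44% higher and 7.76% lower).

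**Figure D1:**
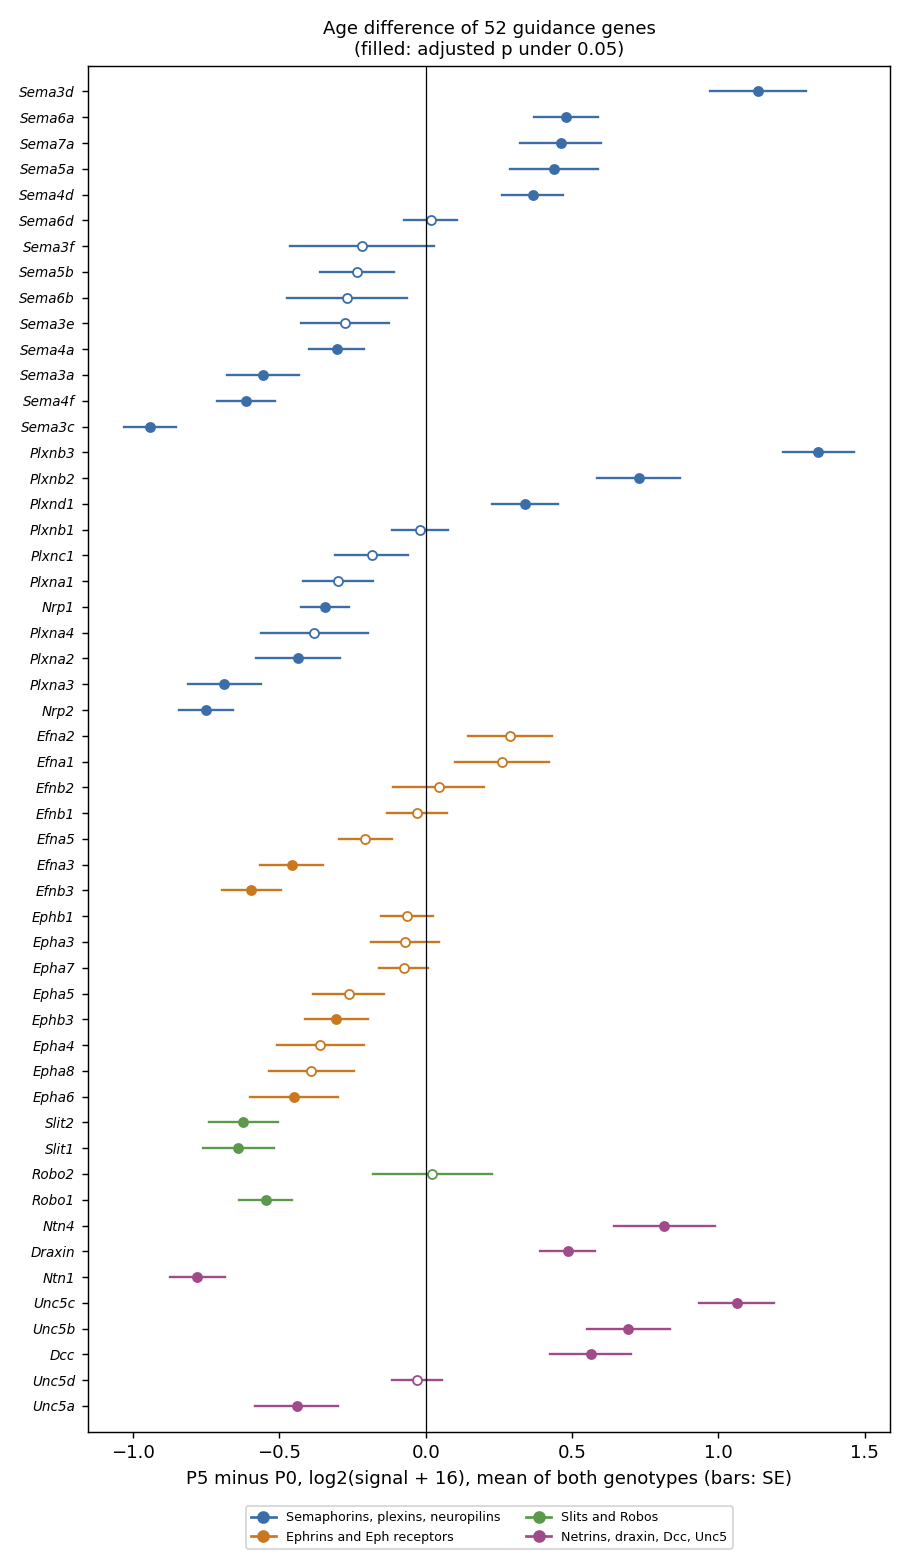
Difference between P5 and P0 for the 52 guidance genes tested, on the log2(signal + 16) scale, as the mean over both genotypes with its standard error; colours mark the families and filled points the 30 genes with an adjusted p under 0.05. Points to the right of 0 are higher at P5. Semaphorin and netrin family genes lie on both sides, all 8 Eph receptors lie to the left, and Plxnb3 at 1.34 and Sema3c at -0.94 are the ends of the range.

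By family, the calls were distributed as follows. Of 25 semaphorin, plexin and neuropilin genes 8 rose and 8 fell (64%), of 15 ephrin and Eph genes 0 rose and 4 fell (26.7%, a share near that of all genes), of 4 Slit and Robo genes 0 rose and 3 fell (75%), and of 8 netrin family genes 5 rose and 2 fell (87.5%). The difference between families was not tested, and the Slit and netrin families hold few genes. Ligands and receptors were called at similar rates, with 16 of 26 ligands and 14 of 26 receptors.

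Among the secreted class 3 semaphorins, which repel or attract axons through neuropilins, Sema3c and Sema3a fell and Sema3d rose. Sema3c ranged from 13.08 to 13.45 at P0, with a median of 13.28, and from 12.14 to 12.59 at P5, with a median of 12.34. It fell by 0.94 ± 0.09 (1.92-fold; adjusted p = 5.93e-06), with every P5 sample below every P0 sample. Sema3a, the founding collapsin that collapses growth cones through Nrp1, ranged from 12.32 to 13.11 at P0 (median 12.79) and from 12.06 to 12.31 at P5 (median 12.18). The ranges just failed to overlap, and Sema3a fell by 0.56 ± 0.12 (adjusted p = 0.00437). Sema3d went the other way, from 9.19 to 10.21 at P0 (median 9.78) to 10.60 to 11.05 at P5 (median 10.90). It rose by 1.14 ± 0.16 (2.20-fold; adjusted p = 0.000231) with no overlap between the ages. The remaining class 3 genes measured, Sema3e and Sema3f, had averaged differences of -0.28 and -0.22 and did not pass the test. A further probe set of Sema3f was at -0.50 (adjusted p = 0.0438 over all probe sets).

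The membrane-bound semaphorins of classes 4 to 7 counted 4 higher and 2 lower of 9. Sema4f fell by 0.61 ± 0.10 (1.53-fold; adjusted p = 0.000578), from 12.04 to 12.44 at P0 (median 12.25) to 11.54 to 11.85 at P5 (median 11.60), without overlap. Sema6a, a transmembrane ligand of A-type plexins, rose by 0.48 ± 0.11 (1.39-fold; adjusted p = 0.00583), from 11.69 to 12.26 at P0 (median 12.10) to 12.35 to 12.75 at P5 (median 12.53). Its samples were also fully separated by age. For the other called genes of these classes the ages overlapped. Sema7a, the GPI-anchored semaphorin that binds Plxnc1 and integrins, ranged from 11.26 to 11.91 at P0 and from 11.79 to 12.41 at P5 and rose by 0.46 ± 0.14 (adjusted p = 0.0227). Sema5a, which carries thrombospondin repeats, ranged from 11.82 to 13.05 at P0 and from 12.48 to 13.20 at P5 and rose by 0.44 ± 0.15 (adjusted p = 0.0434). Other probe sets of these 2 genes moved less, by 0.01 for Sema7a and by 0.09 and 0.13 for Sema5a, and with the mean of all probe sets neither was called (0.24, adjusted p = 0.0765, and 0.13, adjusted p = 0.554). Sema4d, the ligand of Plxnb1, ranged from 11.34 to 11.81 at P0 and from 11.72 to 12.29 at P5 and rose by 0.37 ± 0.10 (adjusted p = 0.0178). Sema4a ranged from 11.58 to 12.02 at P0 and from 11.34 to 11.75 at P5 and fell by 0.30 ± 0.09 (adjusted p = 0.0285). Sema5b, Sema6b and Sema6d, at -0.23, -0.27 and 0.02, did not pass.

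Of the semaphorin receptors, 2 of 3 B-type plexins and Plxnd1 rose, and 2 of 4 A-type plexins and both neuropilins fell. Plxnb3 had the highest rise of all 52 genes. It ranged from 10.27 to 10.90 at P0 (median 10.60) and from 11.76 to 12.12 at P5 (median 11.93) and rose by 1.34 ± 0.12 (2.53-fold; adjusted p = 4.67e-06). The lowest P5 sample lay well above the highest P0 sample, and a second probe set of the gene gave 1.57. Plxnb2 ranged from 12.19 to 13.10 at P0 (median 12.35) and from 13.02 to 13.45 at P5 (median 13.27) and rose by 0.73 ± 0.14 (1.66-fold; adjusted p = 0.00197), with P0 wild-type sample 1 at 13.10 reaching into the P5 range. Plxnb1 stood at -0.02 and did not pass the test. All 4 A-type plexins, the partners of neuropilins for secreted semaphorins, had negative differences with a median of -0.41, and 2 of them fell. Negative differences were found for 6275 of all 12598 genes. Plxna3 ranged from 11.68 to 12.49 at P0 (median 12.07) and from 11.28 to 11.59 at P5 (median 11.38), without overlap, and fell by 0.69 ± 0.12 (1.61-fold; adjusted p = 0.00123). Plxna2 ranged from 13.35 to 14.66 at P0 and from 13.26 to 13.67 at P5 and fell by 0.44 ± 0.14 (adjusted p = 0.0362), with broad overlap. Plxna1 and Plxna4, at -0.30 and -0.38, did not pass. Plxnd1, the receptor of Sema3e, ranged from 10.37 to 10.64 at P0 and from 10.45 to 11.09 at P5 and rose by 0.34 ± 0.11 (adjusted p = 0.0379). Plxnc1 stood at -0.18 and did not pass the test.

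Both neuropilins fell. Nrp2, the co-receptor of Sema3c and Sema3f, ranged from 12.50 to 12.95 at P0 (median 12.77) and from 11.70 to 12.10 at P5 (median 12.02). It fell by 0.75 ± 0.09 (1.68-fold; adjusted p = 6.48e-05), and its 3 other probe sets above the limit fell by 0.54 to 0.98. Nrp1, the co-receptor of Sema3a, ranged from 13.46 to 13.78 at P0 (median 13.56) and ended at 13.35 at P5 (median 13.24). It fell by 0.34 ± 0.08 (1.27-fold; adjusted p = 0.00656). Neither gene had a P5 sample inside its P0 range.

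**Figure D2:**
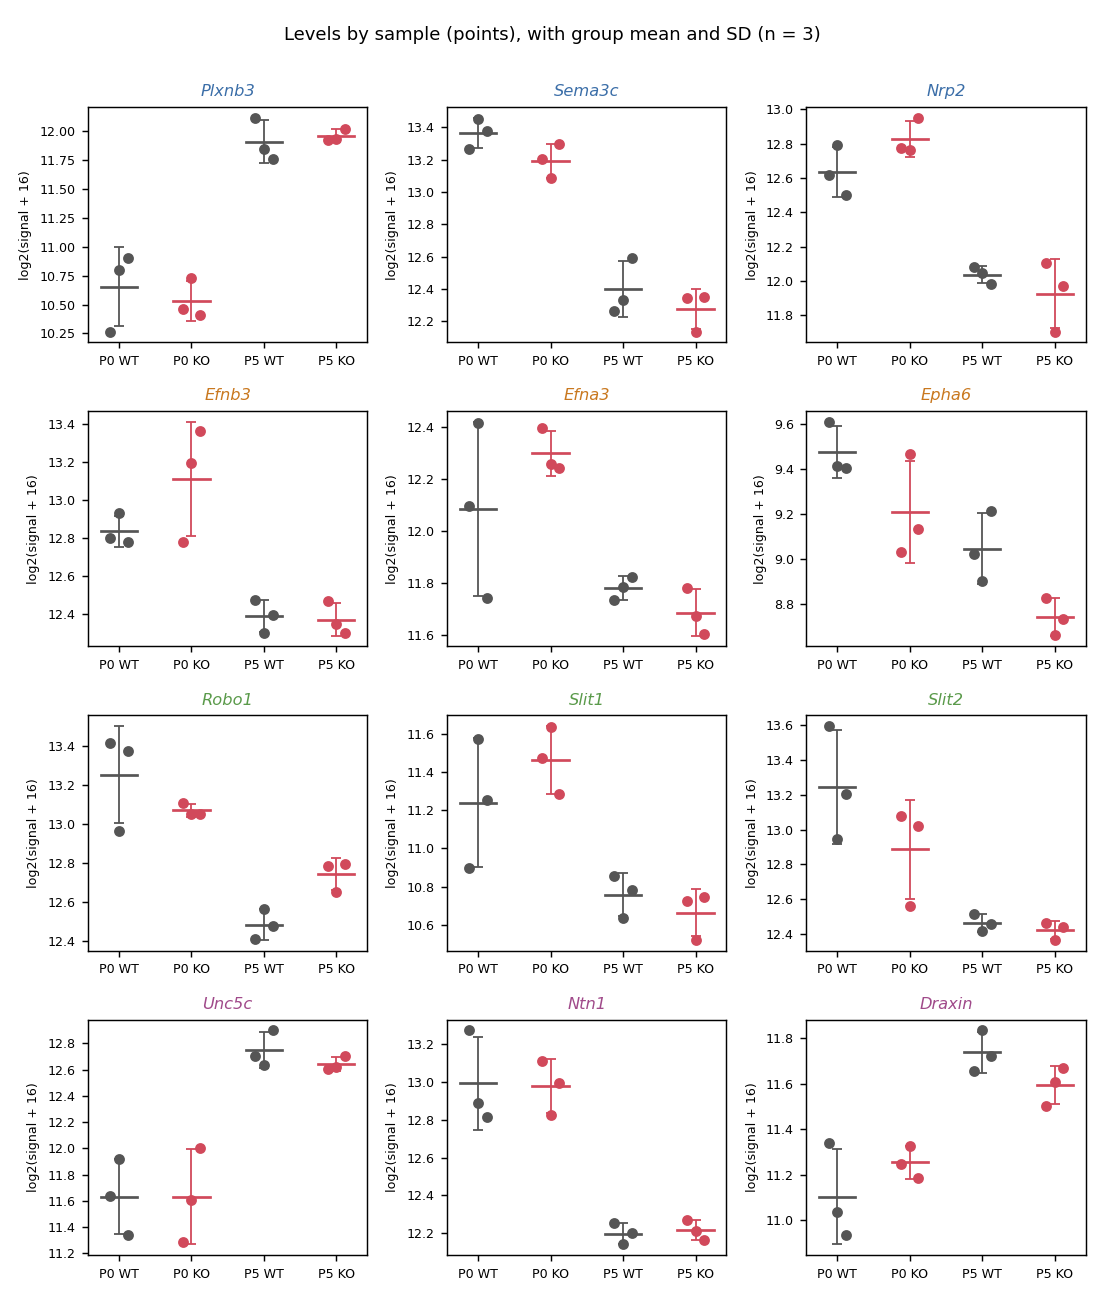
Levels of 12 guidance genes in each sample, as log2(signal + 16), with the mean and SD of each group of 3; P0 and P5 are the ages, WT wild type and KO knockout, and each panel has its own scale that does not start at 0. The 2 P5 groups lie above both P0 groups for Plxnb3, Unc5c and Draxin, and below them for Sema3c, Nrp2, Efnb3, Robo1, Slit1, Slit2 and Ntn1. Efna3 and Epha6 overlap between the ages.

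The bases just before the transcription start are shown for 4 genes because they had the largest differences in each direction among called genes with a single start in the promoter table. They are the 250 bases upstream of the RefSeq start on mouse assembly GRCm38.p6, 5′ to 3′ on the gene's strand. Capitals mark matches on either strand to any of 3 promoter motifs. The TATA box was searched for with the letters TATAAA. The letters of the second motif, the CCAAT box, are its name. For the GC box the letters were GGGCGG. Plxnb3 lies at chrX:73756853-73757102 (+), Sema3d at chr5:12382916-12383165 (+), Sema3c at chr5:17574566-17574815 (+) and Nrp2 at chr1:62703067-62703316 (+).
Plxnb3: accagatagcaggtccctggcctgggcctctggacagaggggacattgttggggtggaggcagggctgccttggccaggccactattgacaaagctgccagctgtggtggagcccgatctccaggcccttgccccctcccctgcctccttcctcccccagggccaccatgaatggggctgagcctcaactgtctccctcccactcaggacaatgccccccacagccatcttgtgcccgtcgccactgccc
Sema3d: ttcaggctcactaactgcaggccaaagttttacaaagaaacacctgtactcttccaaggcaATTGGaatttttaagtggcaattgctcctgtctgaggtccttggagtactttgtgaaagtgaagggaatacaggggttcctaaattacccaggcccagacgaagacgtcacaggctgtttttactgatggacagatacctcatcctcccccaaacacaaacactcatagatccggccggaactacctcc
Sema3c: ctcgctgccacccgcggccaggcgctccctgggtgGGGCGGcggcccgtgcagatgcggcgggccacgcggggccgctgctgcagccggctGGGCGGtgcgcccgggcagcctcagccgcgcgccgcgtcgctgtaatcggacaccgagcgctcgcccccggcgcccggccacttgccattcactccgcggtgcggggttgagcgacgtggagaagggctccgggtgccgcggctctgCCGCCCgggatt
Nrp2: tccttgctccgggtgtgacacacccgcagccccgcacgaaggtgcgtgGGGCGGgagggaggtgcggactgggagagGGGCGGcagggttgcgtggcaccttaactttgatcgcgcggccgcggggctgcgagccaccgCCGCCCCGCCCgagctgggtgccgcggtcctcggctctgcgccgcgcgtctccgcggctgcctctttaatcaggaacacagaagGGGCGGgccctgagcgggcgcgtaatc

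The 2 genes that rose differ in these letters from the 2 that fell. Plxnb3 held none of the 3 motifs, with 3 CpG dinucleotides and 65.2% G or C, and Sema3d held 1 CCAAT box on the reverse strand, with 4 CpG and 46.8% G or C. Sema3c held 3 GC boxes, 39 CpG and 78.4% G or C, and Nrp2 held 5 GC boxes, of which 2 overlap, with 32 CpG and 72.4% G or C. These 4 were picked for their age differences, and the wider set did not divide in the same way. A GC box stood in 7 of 11 promoters of genes that rose (63.6%, median 17 CpG) and in 11 of 14 of genes that fell (78.6%, median 15.5 CpG). Over the 45 guidance genes found in the table, 73.3% held a GC box, 20% a CCAAT box and 4.44% a TATA box, against 32.9%, 34.5% and 13% of all 27025 genes in it. The median promoter held 17 CpG against 6 over the whole table, which also lists noncoding genes. A match describes the letters only, and its part in any difference was not tested.

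Of 7 ephrins and 8 Eph receptors tested, 4 fell and none rose at this threshold, and the other 11 did not pass. Efnb3, a transmembrane ephrin known as a midline barrier to corticospinal axons, ranged from 12.78 to 13.36 at P0 (median 12.86) and from 12.30 to 12.47 at P5 (median 12.37). It fell by 0.60 ± 0.10 (1.51-fold; adjusted p = 0.000765) and was the single gene of its family with no overlap between the ages. Efna3, a GPI-anchored ephrin, ranged from 11.75 to 12.42 at P0 (median 12.25) and from 11.61 to 11.83 at P5 (median 11.76) and fell by 0.46 ± 0.11 (adjusted p = 0.00626). P0 wild-type sample 3 lay within the P5 range for this gene. The other 5 ephrins lay between -0.21 (Efna5) and 0.29 (Efna2), and for Efna2, Efnb1 and Efnb2 other probe sets of the gene gave the opposite sign.

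All 8 Eph receptors read lower at P5, with a median difference of -0.28, though only Epha6 and Ephb3 passed the test. Of all 12598 genes, 6275 read lower at P5. Epha6 ranged from 9.03 to 9.61 at P0 (median 9.41) and from 8.66 to 9.21 at P5 (median 8.86) and fell by 0.45 ± 0.15 (1.37-fold; adjusted p = 0.0377). Ephb3 ranged from 10.63 to 10.99 at P0 (median 10.78) and from 10.33 to 10.76 at P5 (median 10.46) and fell by 0.30 ± 0.11 (adjusted p = 0.0460). Both overlapped between the ages. Epha4, the receptor of Efnb3 in corticospinal axons, stood at -0.36 (adjusted p = 0.0854), and Epha8 at -0.39 (adjusted p = 0.0567). Epha5 stood at -0.26, and Epha3, Epha7 and Ephb1 lay between -0.08 and -0.06. Other probe sets of some of these genes fell by more and passed the test when p was adjusted over all probe sets. They were at -0.62 and -0.36 for Epha5 (adjusted p = 0.00435 and 0.0328), -0.39 for Epha7 (adjusted p = 0.0210) and -0.54 for Epha4 (adjusted p = 0.0468), so that the count of called Eph receptors depends on the probe set read.

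Slit1, Slit2 and Robo1 fell. Slits are secreted repellents that keep crossed axons from returning over the midline. Slit1 ranged from 10.90 to 11.63 at P0 (median 11.38) and from 10.52 to 10.86 at P5 (median 10.74) and fell by 0.64 ± 0.12 (1.56-fold; adjusted p = 0.00164). Slit2 ranged from 12.56 to 13.60 at P0 (median 13.05) and from 12.37 to 12.52 at P5 (median 12.45) and fell by 0.62 ± 0.12 (1.54-fold; adjusted p = 0.00169). The receptor Robo1 ranged from 12.97 to 13.42 at P0 (median 13.08) and from 12.41 to 12.80 at P5 (median 12.61) and fell by 0.55 ± 0.09 (1.46-fold; adjusted p = 0.000675). For all 3 genes the P5 samples lay below the P0 samples, though the gap for Slit1 and Slit2 was narrow. Robo2 stood at 0.02 and did not pass. Slit3 and Robo3, the receptor of commissural axons before crossing, lay below the limit for dim probe sets and were not tested in the main model. Their differences were -0.65 ± 0.36 and -0.67 ± 0.45, with overlapping ages and adjusted p of 0.237 and 0.340 in the model without that limit.

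In the netrin family, the ligand Ntn1 fell while 3 of its 5 receptors rose. Ntn1, which attracts commissural axons toward the floor plate, ranged from 12.81 to 13.27 at P0 (median 12.94) and from 12.14 to 12.27 at P5 (median 12.21). It fell by 0.78 ± 0.09 (1.72-fold; adjusted p = 5.88e-05), with all P5 samples far below all P0 samples. Unc5c, a repulsive netrin receptor, ranged from 11.28 to 12.01 at P0 (median 11.62) and from 12.60 to 12.90 at P5 (median 12.67) and rose by 1.06 ± 0.13 (2.09-fold; adjusted p = 5.65e-05). Unc5b, a repulsive receptor also found on vessels, ranged from 9.46 to 10.03 at P0 (median 9.63) and from 10.13 to 10.65 at P5 (median 10.29) and rose by 0.69 ± 0.14 (1.62-fold; adjusted p = 0.00283). Neither receptor overlapped between the ages. Dcc, the attractive netrin receptor, ranged from 11.77 to 12.67 at P0 (median 12.36) and from 12.60 to 13.05 at P5 (median 12.81) and rose by 0.56 ± 0.14 (1.48-fold; adjusted p = 0.00824), while other probe sets of the gene gave 0.08 and 0.21. Unc5a ranged from 10.12 to 10.60 at P0 (median 10.36) and from 9.46 to 10.30 at P5 (median 10.09) and fell by 0.44 ± 0.14 (adjusted p = 0.0316). Unc5d stood at -0.03 and did not pass.

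The other ligands that act on these receptors or beside them rose. Draxin, a secreted repellent that binds Dcc, ranged from 10.94 to 11.34 at P0 (median 11.22) and from 11.50 to 11.83 at P5 (median 11.66), without overlap. It rose by 0.49 ± 0.09 (1.40-fold; adjusted p = 0.00181). Ntn4, a netrin related to laminins and found in basement membranes, ranged from 9.60 to 10.86 at P0 (median 10.15) and from 10.76 to 11.19 at P5 (median 11.08) and rose by 0.82 ± 0.17 (1.76-fold; adjusted p = 0.00355), with a small overlap.

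A second probe set above the limit existed for 22 of the 30 called genes, and for each of them every further probe set above that limit had the same sign as the one used. Below the limit, a probe set of Sema5a had the opposite sign (-0.14). The fall of Robo1 was larger in its other probe set (-1.25), while the fall of Ntn1 (-0.55) and the rise of Unc5c (0.76) were smaller. A shared sign was not always a second call. The other probe sets of Slit2 (-0.38 and -0.30) and Sema4f (-0.39) did not pass when p was adjusted over all probe sets (0.0580, 0.232 and 0.0589).

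The weaker age calls rested on all samples being present. With 1 of the 12 samples left out at a time, 9 of the 30 genes lost their call at least once. Sema4d lost it without P5 wild-type sample 2 (0.33; adjusted p = 0.0514). Sema7a lost it without P0 wild-type sample 3, P5 wild-type sample 1 or P5 knockout sample 3, the last with the highest adjusted p (0.39; 0.0639). Sema4a and Unc5a lost it in 6 of 12 fits each, Sema5a and Plxna2 in 7 each, Epha6 in 8, and Plxnd1 and Ephb3 in 9 each. The highest adjusted p among these fits was 0.0759 for Sema4a (without P5 knockout sample 2), 0.109 for Sema5a (P5 knockout sample 1), 0.0902 for Plxna2 (P5 knockout sample 2) and 0.0774 for Unc5a (P5 knockout sample 1). For Epha6 it was 0.0861 and for Plxnd1 0.101 (both P5 wild-type sample 2), and for Ephb3 0.120 (P5 wild-type sample 1). All 9 kept their direction in these fits.

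Cell type markers moved with age beside these genes. Over all genes tested, 14.5% were called higher and 15.1% lower at P5. Of 5 genes of progenitors and dividing cells, 2 rose and 1 fell, with differences from -0.98 to 2.15. Of 2 red blood cell genes tested, 1 rose. All 7 oligodendrocyte genes measured rose, with a median difference of 2.92 and a summed signal of 40540 to 62240 in the P0 samples and 227100 to 265200 in the P5 samples. All 7 astrocyte genes rose (median 0.69), as did 4 of 5 genes of oligodendrocyte precursors, 6 of 7 of microglia, 3 of 6 of endothelium and 4 of 8 of meninges, while 5 of 6 neuronal genes fell (median -0.28). Region markers moved too: all 6 cerebellar genes rose (median 1.45), and 5 of 7 Hox genes of hindbrain and spinal cord fell (median -0.83), from a summed signal of 24120 to 46870 at P0 to 15360 to 19780 at P5. Of the forebrain markers, Emx1 and Tbr1 lay below the limit for dim probe sets, and Emx2 and Lhx2 were tested and did not pass. The part of cell makeup and of dissection in the age differences of guidance genes was not tested, and in these bulk samples fewer cells of a type and less RNA per cell cannot be told apart.

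Within wild type alone, 21 guidance genes were called between the ages, 9 higher and 12 lower, which is 40.4% beside 19.4% of all genes (10.8% higher and 8.56% lower). Within knockout alone, 15 were called, 5 higher and 10 lower, which is 28.8% beside 10.5% of all genes (5.53% higher and 4.95% lower). The 3 P5 samples did not overlap the 3 P0 samples for 29 guidance genes in wild type, beside 35.4% of all genes, and for 29 in knockout, beside 33.4%. These comparisons share no samples. The differences had the same sign in both genotypes for 41 of the 52 genes, beside 9255 of all 12598 genes, a similar share. They did so for all 30 genes called in the average, where the choice by the mean of both genotypes largely fixes this, and 10 were called in each genotype on its own: Sema3c, Sema3d, Sema4f, Plxna3, Plxnb3, Nrp2, Efnb3, Ntn1, Unc5b and Unc5c. Another 11 were called in wild type and not in knockout, and 5 in knockout and not in wild type, but a call in a single genotype does not show that the genotypes differ. Across all 52 genes the differences in the genotypes correlated at r = 0.818, against 0.749 over all 12598 genes, as a description across genes that are not independent replicates.

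**Figure D3:**
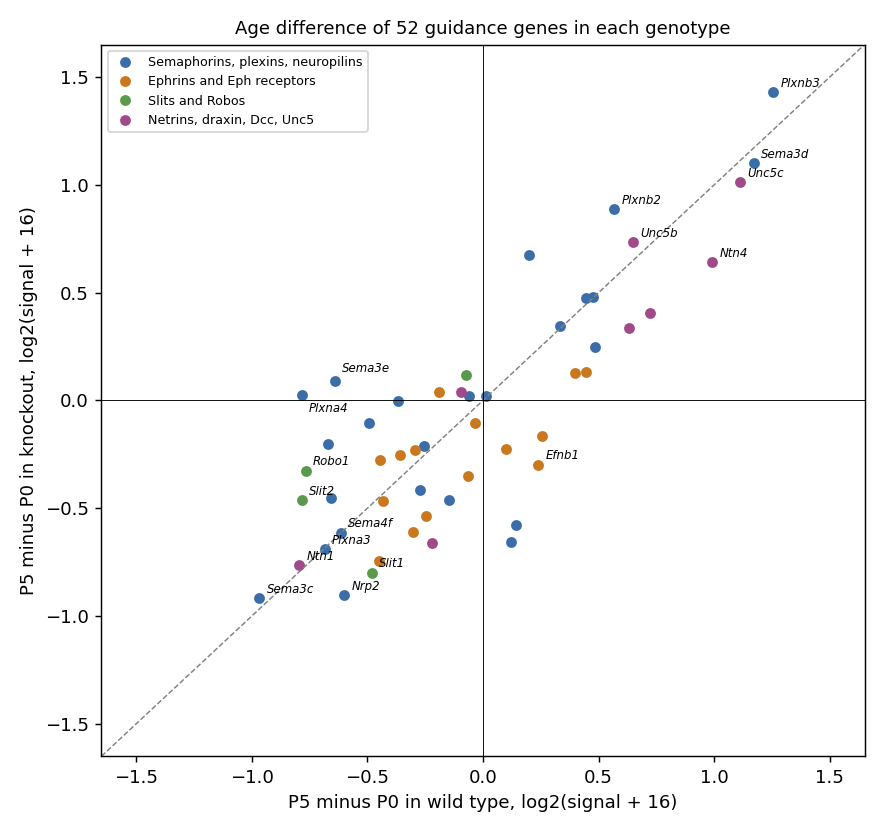
Difference between P5 and P0 in wild type (horizontal axis) and in knockout (vertical axis) for the 52 guidance genes, on the log2(signal + 16) scale, coloured by family; the dashed line marks equal values. The differences have the same sign for 41 of 52 genes, beside 9255 of all 12598 genes. Sema3e and Plxna4 lie near 0 in knockout, at 0.09 and 0.02, and at -0.64 and -0.78 in wild type.

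For 12 of the 30 called genes the age differences of the genotypes lay more than 0.30 apart, among them Unc5a at -0.22 in wild type and -0.66 in knockout and Sema5a at 0.20 and 0.68. Gaps of this size were common: their median was 0.28 over the 52 guidance genes and 0.22 over all genes tested. The share of all genes more than 0.30 apart was not counted. The genes with large averaged differences had the following values in each genotype. Plxnb3 differed by 1.25 in wild type and 1.43 in knockout, Sema3d by 1.17 and 1.10, and Unc5c by 1.11 and 1.01. Sema3c differed by -0.97 and -0.92, Ntn1 by -0.80 and -0.76, and Nrp2 by -0.60 and -0.90. In contrast, the A-type plexins were called for 3 of 4 genes in wild type (Plxna2, Plxna3 and Plxna4) and for 1 in knockout (Plxna3). For Plxna2 the order of the genotypes depended on the probe set. Its others gave -0.76, -1.07 and -0.36 in wild type and -0.50, -0.29 and -0.56 in knockout. Sema3e and Plxna4 were called lower in wild type (adjusted p = 0.0491 and 0.0483) and not in the average.

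The test of that contrast is the genotype by age interaction, in which 0 of 52 guidance genes and 0% of all genes were called. An unadjusted p under 0.05 was reached by 4 of the 52 guidance genes, beside 622 of all 12598 genes (4.94%). The smallest adjusted p was 0.743, so the values of these 4 genes are given as description only. In wild type, Sema3e read 11.54, 11.11 and 11.54 at P0 and 11.00, 10.30 and 10.97 at P5, and in knockout 11.19, 10.86 and 10.82 at P0 and 10.74, 11.25 and 11.14 at P5. Its ages overlapped in knockout and were separated in wild type, and its interaction was 0.73 ± 0.30. Other probe sets of Sema3e gave -0.05 ± 0.30, 0.10 ± 0.58 and 0.39 ± 0.39. The first of these, of similar mean signal, moved with age by -0.08 in wild type and -0.13 in knockout. The contrast of Sema3e therefore depends on the probe set read. For Epha3, a probe set other than the one used gave 1.20 ± 0.28 (adjusted p = 0.838 over all probe sets). Plxna4 had an interaction of 0.81 ± 0.36, Efnb1 of -0.54 ± 0.21 and Robo1 of 0.44 ± 0.18. Other probe sets gave 0.36 ± 0.31 for Plxna4, and 0.02 ± 0.30 and -0.18 ± 0.25 for Efnb1. In wild type, Robo1 read 13.42, 12.97 and 13.37 at P0 and 12.41, 12.57 and 12.48 at P5, and in knockout 13.11, 13.05 and 13.05 at P0 and 12.79, 12.65 and 12.80 at P5. Its ages were separated in both genotypes, with a narrower gap in knockout. In this probe set, Robo1 differed with age by -0.77 in wild type (adjusted p = 0.00161) and by -0.33 in knockout (adjusted p = 0.128). The difference between these values was not called. Another Robo1 probe set above the limit differed by -1.39 in wild type and -1.10 in knockout. Both passed when p was adjusted over all probe sets (0.000121 and 0.000967), and the interaction was 0.29 ± 0.22. The missing call in knockout therefore depends on the probe set read.

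Between the genotypes, no guidance gene was called. The count was 0 of 52 at P0, beside 0.0238% of all genes, 0 of 52 at P5, beside 0.00794%, and 0 of 52 averaged over the ages, beside 0.0238% (limma). At an unadjusted p under 0.05 the counts were 6 at P0 (16.1% of all genes), 1 at P5 (1.85%) and 2 in the average (8.63%). The samples of the genotypes did not overlap for 4 genes at P0 (10.2% of all genes) and for 4 genes at P5 (12.9%). The P0 comparison uses the same P0 wild-type samples as the age comparison in wild type, so their values are not independent.

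The intervals limit how large a genotype difference could be for the probe set read of each gene. Averaged over the ages, the 95% confidence interval of all 52 genes lay within 2-fold either way, with the farthest bound at 0.91 for Sema3f. At P5 all 52 intervals also lay within 2-fold, with the farthest bound at 0.89 for Robo2. At P0, 47 did, and those of Plxna2, Plxna4, Sema3f, Sema5a and Sema6b reached past it, up to 1.49 for Sema3f. These limits do not hold for every probe set. Further ones above the limit for dim probe sets gave larger P0 differences for Plxnc1 (-1.04 ± 0.31), Plxna2 (-1.01 ± 0.24) and Epha4 (-1.09 ± 0.41). Their adjusted p over all probe sets was 0.359 to 0.374. Averaged over the ages, a second probe set of Ntn4 was at 0.68 ± 0.21, against 0.10 for the one used. A further probe set of Sema4d was at -0.76 ± 0.38 in the average and at -0.85 ± 0.54 at P5, against -0.19 and -0.31 for the one used.

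**Figure D4:**
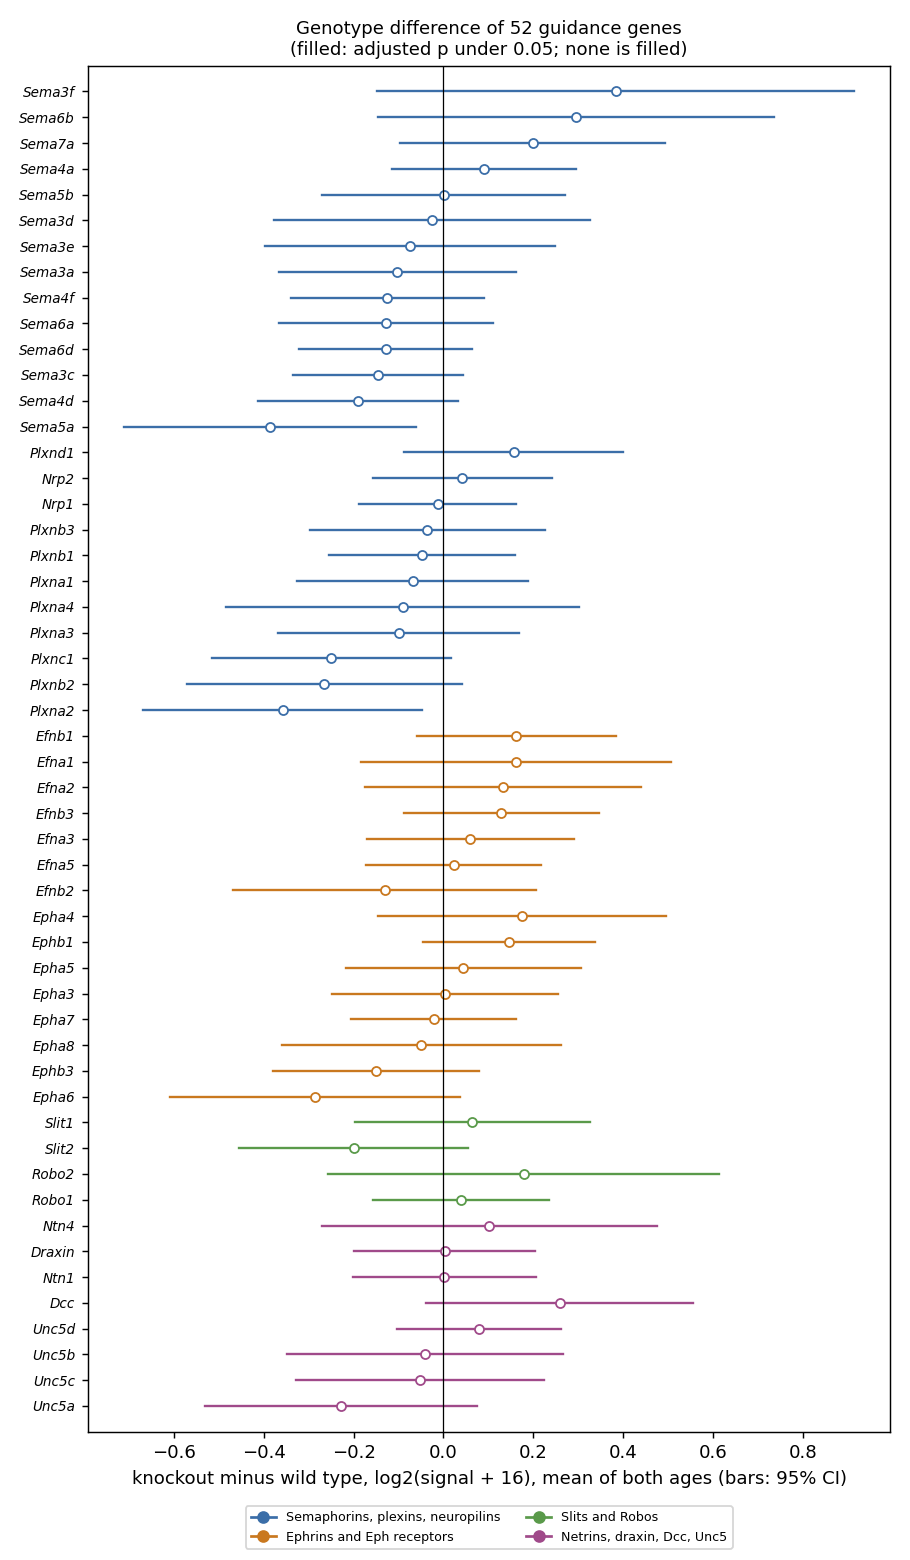
Difference between knockout and wild type for the 52 guidance genes, averaged over P0 and P5, on the log2(signal + 16) scale, with 95% confidence intervals; colours mark the families. No point is filled because no gene had an adjusted p under 0.05. The intervals of Sema5a and Plxna2 do not include 0, and the farthest bound, for Sema3f, is 0.91.

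In the semaphorin family, the smallest p in the averaged genotype comparison belonged to Sema5a and Plxna2. Sema5a read 13.05, 12.94 and 12.42 in P0 wild type and 12.41, 12.31 and 11.82 in P0 knockout. All P0 knockout samples lay below the wild-type samples by a narrow margin, whereas at P5 the values of 12.96, 13.20 and 12.85 in wild type and 13.19, 12.48 and 12.89 in knockout overlapped. The averaged difference, knockout minus wild type, was -0.39 (95% interval -0.71 to -0.06; adjusted p = 0.576). At P0 Plxna2 read 14.66, 14.06 and 14.11 in wild type against 14.17, 13.54 and 13.35 in knockout, and at P5 13.59, 13.66 and 13.57 against 13.67, 13.26 and 13.52. The genotypes overlapped at both ages, and the averaged difference was -0.36 (-0.67 to -0.05; adjusted p = 0.576). At P0 all 4 A-type plexins read lower in knockout, with a median of -0.38, and 0 were called. Of all 12598 genes, 5154 read lower in that comparison.

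In the ephrin family, the averaged differences of Epha6 and Ephb1 had the smallest p. At P0 Epha6 read 9.61, 9.42 and 9.41 in wild type against 9.03, 9.47 and 9.13 in knockout, and at P5 9.02, 8.90 and 9.21 against 8.83, 8.66 and 8.73. The genotypes were separated at P5 and not at P0, and the averaged difference was -0.29 (-0.61 to 0.04; adjusted p = 0.587). Ephb1 read 12.63, 12.73 and 12.33 in P0 wild type and 12.72, 12.96 and 12.93 in P0 knockout, and all 6 P5 samples lay between 12.60 and 12.72. Its averaged difference was 0.15 (-0.04 to 0.34; adjusted p = 0.605). All 7 ephrins read higher in knockout at P0, with a median of 0.28, and 6 of 7 read lower at P5. At either age 0 were called. Of all 12598 genes, 7444 read higher in knockout at P0 and 6094 lower at P5. The sign at P0 depended on the probe set. Others above the limit gave -0.15, -0.68 and -0.36 for Efnb2, -0.17 and 0.12 for Efnb1, 0.58 for Efna2 and 0.10 for Efna3.

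Among the Slit family, Slit2 read 13.60, 12.94 and 13.20 in P0 wild type and 13.08, 12.56 and 13.02 in P0 knockout, while all P5 samples lay between 12.37 and 12.52. Its averaged difference was -0.20 (-0.46 to 0.06; adjusted p = 0.60). Robo2 had an averaged difference of 0.18 (-0.26 to 0.61; adjusted p = 0.744), and P0 wild-type sample 2, at 9.71, lay apart from samples 1 and 3 at 10.93 and 10.83. Without that sample the difference of Robo2 was -0.02.

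In the netrin family, Dcc read 11.77, 12.53 and 11.90 in wild type against 12.19, 12.59 and 12.67 in knockout at P0, and 12.75, 12.84 and 12.78 against 13.05, 12.60 and 13.02 at P5. The genotypes overlapped at both ages, with an averaged difference of 0.26 (-0.04 to 0.56; adjusted p = 0.587), and the mean of all its probe sets gave -0.05. Unc5a read 10.07, 10.30 and 10.10 in P5 wild type and 9.46, 9.55 and 10.12 in P5 knockout, with an averaged difference of -0.23 (-0.53 to 0.08; adjusted p = 0.607).

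The genotype counts at P0 depended on a single sample. Without P0 wild-type sample 2, 8 guidance genes were called at P0, beside 21.3% of all genes: Dcc at 0.65 and Ephb1 at 0.39 were higher in knockout, and Plxna1 at -0.49, Plxna2 at -0.70, Plxnb2 at -0.70, Plxnc1 at -0.66, Robo1 at -0.33 and Slit2 at -0.51 were lower. In the average over the ages, Plxnb2 at -0.40 and Plxnc1 at -0.36 were then called, beside 5.9% of all genes. No marker gene of another cell type was called between the genotypes at P0, but the summed signals of some lists did not overlap between these groups. Those of 3 red blood cell genes ran from 934 to 1904 in wild type and from 2718 to 4354 in knockout, with a median difference of 1.44 over the 2 tested. Meningeal genes ran from 65470 to 96200 and from 126500 to 148200 (median difference 0.57) and endothelial genes from 10990 to 12530 and from 12800 to 14860 (-0.03), while microglial genes, at 15220 to 22980 and 22630 to 27620 (0.56), and neuronal genes, at 343800 to 409800 and 314900 to 377100 (-0.20), overlapped. Their part in the guidance gene values was not tested.

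Among other genes of the guidance pathways, falls with age outnumbered rises. For all genes tested, the shares were 29.6% called, 14.5% higher and 15.1% lower. Of 25 further ligands, receptors and relatives, 20 were tested, and 1 rose and 8 fell (45%, median -0.30). The smallest p values belonged to Rgmb, a repulsive guidance molecule that fell by 0.80 (adjusted p = 0.000687), Sema4g, which fell by 0.53 (adjusted p = 0.00165), Dscam, an adhesion molecule and netrin receptor that fell by 0.49 (adjusted p = 0.00184), and Ntng1, a GPI-anchored netrin relative that fell by 0.47 (adjusted p = 0.00539). The gene that rose was Sema3b, at 0.77 (adjusted p = 0.0158), which is named because it was the only rise. Of 55 signalling and co-receptor genes, 50 were tested, and 3 rose and 22 fell (50%, median -0.22). L1cam, the adhesion molecule that pairs with Nrp1, fell by 0.67 (adjusted p = 0.000310), Farp1, an exchange factor for small GTPases, fell by 0.76 (adjusted p = 0.000360), and Dpysl3, of the collapsin response mediators, fell by 0.56 (adjusted p = 0.00101). Cntn2, a contactin of axons and myelinating glia, rose by 0.65 (adjusted p = 0.000669).

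Between genotypes 0 genes of either list were called at P0, at P5 or in the average, beside 0.0238%, 0.00794% and 0.0238% of all genes. The smallest p values in the average belonged to Sema4b at 0.51 and Sema3b at -0.52 among the relatives, and to Rhoa, the small GTPase of growth cone collapse, at 0.26 and the kinase Fyn at -0.24 in the signalling list, each with an adjusted p of 0.576.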

How the data were processed

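Probe set signals of 12 samples, 3 in each of 4 groups, were used as the authors deposited them, as an intensity per probe set on a linear scale. For the software behind them, no name was given in the sources used here. Per the deposited values, every array had a mean of 2500.01 after leaving out 2% of probe sets at each end, and median signals of 605 to 734. For arrays, the number per group limits the precision.

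Of 45101 probe sets, 64 controls were left out and 34945 of the others had a single symbol. Signals were transformed as log2(signal + 16) and quantile-normalized. Probe sets with a mean log2 signal below the 40th percentile (8.72) were left out. A mean per group was fitted with limma 3.58.1 in R 4.3.3 (intensity trend, 8 residual and 5.59 prior degrees of freedom), and the code was tested on simulated data. Every adjusted p is limma's.

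The guidance genes and gene lists were chosen with earlier results of these data known. All listed genes may be named: called genes and the smallest p values per family get full values. From the lists of relatives and of signalling genes, up to 4 genes by age and 2 by genotype were named. Alternatives covered filter, pseudocount, scaling, trend, array weights, replicate block, samples fitted, probe set choice and leaving out each sample. Same-numbered samples were not treated as pairs in the main model. In deviations from the group means, 5 of 18 same-numbered pairs correlated above 0.1. The highest were P0 wild type with P0 knockout, at 0.42 for number 1 and 0.38 for number 2. Differently numbered pairs were not compared, so whether the numbers mark shared handling was not tested.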

Additional observations from a re-analysis of the deposited data

How the results depend on the processing

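Of the 30 guidance genes called with age, 21 kept their call under every alternative run and 9 lost it under at least 1: Sema4a, Sema4d, Sema5a, Sema7a, Plxna2, Plxnd1, Epha6, Ephb3 and Unc5a. None of the 30 changed direction. Leaving out each sample in turn gave 10 to 13 genes higher and 12 to 18 lower in the averaged age comparison. In these fits 22.3% to 42.6% of all genes were called in either direction. The counts were 5 to 10 and 6 to 12 in wild type (9.52% to 38.3% of all genes). They were 4 to 7 and 4 to 14 in knockout (5.18% to 15.6%). The genotype comparison gave 0 to 8 calls at P0 (0.00794% to 21.3%) and 0 to 2 in the average (0.00794% to 5.9%). At P5 and in the interaction 0 were called (up to 0.0238% and 1.64%). In wild type the count of lower genes was 7 without P0 wild-type sample 1 (10.6% of all genes called). It was 6 without P5 wild-type sample 1 or 3 (9.52% and 9.85%). The count of higher genes was 5 without P0 wild-type sample 3 (11.4%) or P5 wild-type sample 1 (9.52%) or 2 (9.74%). In knockout the count of lower genes was 6 without P5 knockout sample 1 (6.36%) and 4 without sample 2 (5.18%). With array weights, which gave the P0 wild-type samples 0.359, 0.189 and 2.45, there were 11 genotype calls at P0 (24.5% of all genes called), 5 in the average (16.2%), 6 in the interaction (12.1%), and 16 genes higher and 15 lower with age in wild type (47.9%). The mean of all probe sets gave 5 genes higher and 14 lower with age in wild type (15%), and a model of only the samples compared gave 6 and 7 (10.5%). Without P0 wild-type samples 1 and 2, a choice made after seeing the data that leaves 1 sample assumed to vary like the others, 12 genes were higher and 13 lower with age (48.1%, beside 34.3% of all genes), 8 were higher and 15 lower at P5 within knockout (17.1% of all genes), and Ephb1 (0.54) was the 1 genotype call at P0 (1.92%, beside 4.51% of all genes). For uncalled genes, the averaged genotype difference of Robo2 ran from -0.016 without P0 wild-type sample 2 to 0.29 without sample 1, and that of Dcc was -0.047 with the mean of all probe sets. With the replicate block, 13 genes were higher and 15 lower with age, and 0 were called between genotypes. The cause of these shifts was not tested.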
